A study of Mus musculus with 12 samples.

Results

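Alveolar macrophages carry and secrete enzymes that cut the extracellular matrix, inhibitors of those enzymes, and matrix proteins that cells adhere to. The 10 genes described here are the matrix metalloproteinases Mmp8, Mmp12, Mmp14 and Mmp19, the tissue inhibitors of metalloproteinases Timp1, Timp2 and Timp3, and the adhesive proteins Spp1 (osteopontin), Fn1 (fibronectin) and Thbs1 (thrombospondin 1). They were chosen by name, and each matched a single Ensembl gene among the 43430 in the deposited table. Matrix metalloproteinases are zinc enzymes made as inactive precursors, secreted or held at the cell surface, and TIMPs block them by binding the active site. Osteopontin and fibronectin are ligands of integrins, and in the lung macrophage elastase (the product of Mmp12) and osteopontin are known as macrophage products in emphysema and fibrosis.

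The cells came from the lungs of male mice of 14 weeks in a murine lung transplant model, and polyadenylated RNA was sequenced. There were 4 libraries from naive lungs, 4 from lungs 2 h after reperfusion (when blood flow through the grafted lung resumes) and 4 from lungs 24 h after reperfusion. All 12 are labelled Cx3cr1gfp/+B6, that is heterozygous for a gfp allele of the chemokine receptor gene Cx3cr1, in the naive group too. Titles of the reperfusion libraries carry an unexplained Allo. Whether each library came from its own animal is not stated, so the p-values reflect variation between libraries that may be technical only.

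Library totals were 6112586 to 11997945 reads. The libraries at 2 h stood apart in a way their common genotype label does not account for. H2-Ea-ps, an MHC class II gene annotated as a pseudogene in the B6 reference, was at 19.3 to 27.1 RPKM at 2 h, at 0 to 0.184 RPKM in naive and at 1.48 to 5.2 RPKM at 24 h (RPKM, reads per kilobase of gene scaled to the library total). Time after reperfusion and any other difference between these groups therefore cannot be told apart in the results that follow. Of 14 alveolar macrophage markers, 14 passed the filter on low values, and they did not move together. Against naive 2 rose and 5 fell at 2 h, where 14.7% of all tested genes rose and 22.0% fell. At 24 h 2 rose and 9 fell, where 25.3% of all tested genes rose and 20.6% fell. In the order naive, 2 h and 24 h the means were 58.3, 44.3 and 27.1 RPKM for Siglecf, 396, 377 and 221 RPKM for Itgax and 94.9, 69.5 and 398 RPKM for Marco. The sum of the list was 12100 to 12500 RPKM in naive, 8560 to 9830 RPKM at 2 h and 10000 to 11900 RPKM at 24 h. In these bulk samples fewer cells of a type and less RNA per cell cannot be told apart. Summed neutrophil markers went from 15.8 to 21.9 RPKM in naive and 15.6 to 24.0 RPKM at 2 h to 33.7 to 40.1 RPKM at 24 h, most of it S100a8. Of 4 tested neutrophil markers 2 rose and 1 fell at 24 h against naive, the latter Csf3r, with means of 6.51, 5.45 and 2.01 RPKM in naive, at 2 h and at 24 h. Lcn2, another of the tested markers, passed the filter only through the 24 h libraries, so its difference carries no weight as a test. It was at 1.3 to 2.06 RPKM there and at most 0.123 RPKM elsewhere. S100a9 had means of 0.699, 0.424 and 0.456 RPKM, Elane was at 0 in all 12 libraries and Ly6g reached 0.108 RPKM at most. Summed interstitial macrophage markers were 7.1 to 11.1 RPKM in naive, 1.47 to 2.6 RPKM at 2 h and 1.54 to 3.54 RPKM at 24 h, and lymphocyte markers were 10.6 to 18.1, 2.5 to 8.8 and 2.05 to 3.13 RPKM. Monocyte markers summed to 10.1 to 11.4, 7.67 to 9.29 and 6.42 to 7.15 RPKM, and platelet markers to 6.62 to 10.3, 3.98 to 6.93 and 2.33 to 5.07 RPKM. Most of the platelet sum was Clec1b (means 4.88, 2.75 and 1.94 RPKM) and Pf4 (2.59, 1.04 and 0.927 RPKM). The platelet markers did not move together: Gp1ba (0.198 and 0.61 RPKM), Treml1, Itga2b, Gp9 and Tubb1 had higher means at 2 h than in naive, and Ppbp and Gp1bb lower. Epithelial and mesothelial markers summed to 67.0 to 72.2 RPKM in naive, 61.1 to 80.8 RPKM at 2 h and 33.8 to 41.5 RPKM at 24 h. Most of that difference was Epcam (means 42.5, 38.2 and 12.2 RPKM), 1 of 5 tested markers fell at 24 h against naive, and Scgb1a1 had means of 7.6, 7.46 and 8.36 RPKM. Stromal markers summed to at most 2.27 RPKM in any library. The part of these other cells in the changes described below was not tested.

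The test was limma on log2(RPKM + 1) for the 11419 genes that reached 1 RPKM in 4 or more of the 12 libraries, and a gene is called changed at a Benjamini-Hochberg adjusted p under 0.05 over all of them. By this filter 7 of the 10 genes were tested, and Mmp14, Timp3 and Thbs1 were not. Mmp12 passed the filter only through the 2 h libraries and Timp1 only through the 24 h libraries. Both thus had to differ between groups to be tested at all, and their calls in comparisons with those groups are no support for a change. At 2 h against naive Mmp12, Mmp19 and Spp1 rose and Fn1 fell, where 36.7% of all tested genes were called (14.7% higher and 22.0% lower, or 1675 and 2514 genes, and 2062 and 2043 with median-ratio scaling). At 24 h against naive Timp1 and Spp1 rose and Mmp19 and Timp2 fell, where 45.9% of all tested genes were called (25.3% higher and 20.6% lower). At 24 h against 2 h Timp1 and Fn1 rose and Mmp8, Mmp12, Mmp19 and Timp2 fell, where 52.5% were called (30.9% higher and 21.5% lower, or 3534 and 2458 genes, and 2984 and 3011 with median-ratio scaling). Groups that do not overlap were common too. At 2 h against naive this held for 34.5% of tested genes (14.0% wholly higher, 20.5% wholly lower), at 24 h against naive for 47.9% (25.8% and 22.0%) and at 24 h against 2 h for 45.7% (27.5% and 18.2%). The 3 comparisons share their libraries in pairs and are not independent of each other.

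The stretches before the starts of Mmp12 and Spp1 are shown because these were the genes with the widest rises at 2 h. RefSeq promoter sequences (build GRCm38.p6, which has the coordinates of mm10) were found for 7 of the 10 genes, 9 starts in all, and not for Mmp19, Fn1 and Thbs1. The 250 bases before each start were searched on both strands for 3 motifs: TGANTCA, which the stress-responsive factor AP-1 binds, TATAAA, the TATA box, and a loose NF-kappaB motif, GGGA and CC with any 4 bases between them. Mmp12 has a pair of annotated starts. The sequences run 5′ to 3′ on the + strand at chr9:7344147-7344396 for the first start of Mmp12, chr9:7347124-7347373 for the second and chr5:104434861-104435110 for the first of the starts of Spp1, and capitals mark motif matches.
Mmp12 start 1: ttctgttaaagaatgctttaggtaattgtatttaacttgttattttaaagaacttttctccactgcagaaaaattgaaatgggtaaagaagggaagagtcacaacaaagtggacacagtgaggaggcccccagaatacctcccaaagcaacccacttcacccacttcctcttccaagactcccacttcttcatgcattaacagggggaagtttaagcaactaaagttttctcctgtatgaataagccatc
Mmp12 start 2: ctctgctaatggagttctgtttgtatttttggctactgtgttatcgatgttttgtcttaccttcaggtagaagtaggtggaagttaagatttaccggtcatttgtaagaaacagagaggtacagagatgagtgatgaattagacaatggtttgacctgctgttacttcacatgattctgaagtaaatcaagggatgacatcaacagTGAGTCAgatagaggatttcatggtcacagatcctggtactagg
Spp1 start 1: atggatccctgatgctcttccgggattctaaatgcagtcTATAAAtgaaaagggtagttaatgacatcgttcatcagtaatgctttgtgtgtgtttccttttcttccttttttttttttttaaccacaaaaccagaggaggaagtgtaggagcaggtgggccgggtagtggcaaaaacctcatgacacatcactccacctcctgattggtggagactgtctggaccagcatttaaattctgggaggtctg
The second start of Mmp12 held TGAGTCA, a match to the AP-1 motif, 44 to 38 bases before the start, and the first start of Mmp12 held none of the 3 motifs. The window of Spp1 held TATAAA 211 to 206 bases before the start. Of 32851 RefSeq promoters of this length 6.75% held the AP-1 motif, 12.4% TATAAA and 17.6% the NF-kappaB motif. None of the 3 motifs was found in the windows of Mmp8, Mmp14, Timp1, Timp2 and Timp3 or at the second start of Spp1. A match is a description of letters in a window and not of a bound site.

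Mmp12 encodes macrophage elastase, the enzyme with which macrophages degrade elastin. The gene lies at chr9:7344381-7369499 (mm10, + strand), in a cluster of 9 protein-coding Mmp genes over 427 kb of chromosome 9. In naive libraries Mmp12 was at 0.579, 0.642, 0.661 and 0.797 RPKM, at 2 h at 3.12, 2.80, 4.91 and 6.66 RPKM, and at 24 h at 0.148, 0.211, 0.0852 and 0.970 RPKM. Each 2 h library exceeded every naive and every 24 h library, and at 24 h 3 libraries lay below all naive libraries while replicate 4 lay above them. The mean RPKM at 2 h was 6.53-fold that in naive, a log2 fold change of 1.63 ± 0.23 (SE). This became 2.46 with a pseudocount of 0.1 and 2.6 with voom on recovered reads. At 24 h the mean was 8.09% of that at 2 h (log2 fold change -1.97 ± 0.23, SE). This became -3.58 and -4.17 under the same 2 settings, -2.55 with a pseudocount of 0.5 and -3.08 with equal totals. No p-value is given for these 2 differences, because Mmp12 was tested only through its 2 h libraries. Against naive the mean at 24 h was 52.8% (log2 fold change -0.35 ± 0.23, SE, limma adjusted p = 0.244), which did not pass, and with voom it passed (log2 fold change -1.58, adjusted p = 0.0451). These values rest on 66 to 69 reads per naive library, 392 to 654 at 2 h and 11 to 120 at 24 h. Mmp12 shares 157 exon bases with Mmp1b on the opposite strand, which was at 0 in all 12 libraries.

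Mmp8, the neutrophil collagenase, which cleaves fibrillar collagens, lies in the same cluster at chr9:7558456-7568485 (+ strand). It was at 13.1, 10.7, 13.6 and 12.0 RPKM in naive, at 10.98, 13.2, 14.7 and 16.8 RPKM at 2 h and at 10.7, 10.6, 8.82 and 9.24 RPKM at 24 h. The 2 h libraries overlapped naive, while all 24 h libraries lay below all 2 h libraries. Against 2 h the gene fell by 0.45 ± 0.12 on the log2 scale (SE, limma adjusted p = 0.00627), to 70.7% of the 2 h mean. At 2 h the difference from naive was 0.15 on the log2 scale (95% interval -0.10 to 0.40, limma adjusted p = 0.328). At 24 h it was -0.30 against naive (SE 0.12, limma adjusted p = 0.0529), and 9 of 24 other settings called this fall, with log2 fold changes of -0.30 to -0.36. Among those 9 were the fits without naive replicate 2 (-0.36), without 2 h replicate 1 and without 2 h replicate 4 (-0.30 each). The other 7 genes of the cluster, Mmp13, Mmp1b, Mmp3, Mmp10, Mmp27, Mmp20 and Mmp7, were each below 0.3 RPKM in every library, so that Mmp8 and Mmp12 were the 2 genes of the cluster that were tested.

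Mmp19 encodes a secreted metalloproteinase with basement membrane proteins among its substrates, at chr10:128790910-128800824 (+ strand). It was at 99.98, 119, 111 and 96.0 RPKM in naive, at 133, 162, 206 and 172 RPKM at 2 h and at 56.3, 78.3, 45.7 and 56.6 RPKM at 24 h. The 3 groups did not overlap, with 2 h above naive and 24 h below it. Mmp19 rose 1.58-fold at 2 h (log2 fold change 0.64 ± 0.16, SE, limma adjusted p = 0.00807) and was at 55.6% of naive at 24 h (log2 fold change -0.86 ± 0.16, SE, limma adjusted p = 0.00089). From 2 h to 24 h it fell by 1.5 on the log2 scale (limma adjusted p = 9.54e-06). The gene shares 789 exon bases with Tmem198b, on the opposite strand at its end. Tmem198b was also the gene most like Mmp19 across the 12 libraries, with means of 17.1, 26.1 and 8.81 RPKM in the 3 groups. The sources do not say whether reads were counted by strand, so reads of Mmp19 and Tmem198b from the shared bases cannot be told apart.

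Mmp14 encodes a metalloproteinase of the cell membrane, which activates other members of the family, at chr14:54431612-54445364 (+ strand). It was at 0.438, 0.388, 0.154 and 0.315 RPKM in naive, at 0.2996, 0.521, 0.0448 and 0.372 RPKM at 2 h and at 0.289, 0.640, 0.202 and 0.422 RPKM at 24 h. These are 1 to 18 reads per library, the groups overlapped, and differences between them were not tested at this depth.

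**Figure D1:**
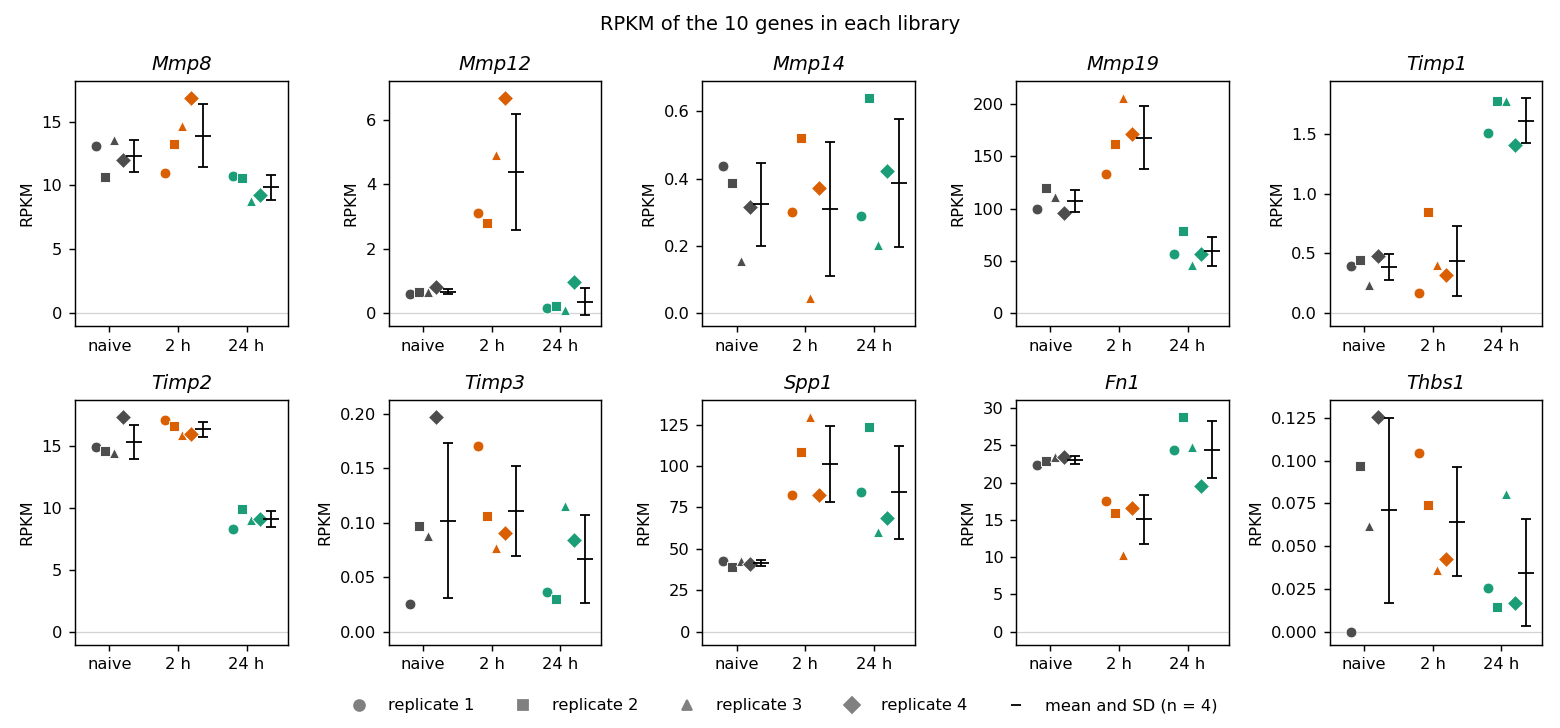
RPKM (y axis, from 0 on a linear scale of its own in each panel) of the 10 genes in naive, 2 h and 24 h libraries, with a point for each library, a marker shape for each replicate number and a bar for the mean and SD (n = 4). Mmp12 and Mmp19 are highest at 2 h, Timp1 is highest at 24 h, Timp2 is lowest at 24 h, and Mmp14, Timp3 and Thbs1 stay below 1 RPKM throughout.

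The inhibitors moved in different directions at 24 h. Timp1, the inducible member of the family, lies on the X chromosome at chrX:20870166-20874735 (+ strand). Its values were 0.398, 0.441, 0.234 and 0.477 RPKM in naive, 0.170, 0.845, 0.407 and 0.322 RPKM at 2 h and 1.51, 1.77, 1.77 and 1.40 RPKM at 24 h. The 2 h libraries lay on both sides of the naive range, and all 24 h libraries lay above all others. The mean RPKM of Timp1 at 24 h was 4.17-fold that in naive, a log2 fold change of 0.91 ± 0.13 (SE). This became 1.84 with a pseudocount of 0.1, 1.54 with equal totals and 1.99 with voom on recovered reads. Against 2 h Timp1 was 3.70-fold higher (log2 fold change 0.88 ± 0.13, SE), and 1.82, 1.52 and 2.00 under those settings. No p-value is given for either difference, because Timp1 was tested only through its 24 h libraries. At 2 h against naive the log2 fold change was 0.03 (95% interval -0.26 to 0.32, limma adjusted p = 0.871). The depth was low, with 3 to 6 reads per naive library, 3 to 15 at 2 h and 22 to 33 at 24 h. Timp1 sits within Syn1, which runs on the opposite strand and shares no exon bases with it, and Syn1 was lower at 24 h (3.38 to 4.25 RPKM) than in naive (7.0 to 8.38 RPKM).

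Timp2, which inhibits metalloproteinases and also helps Mmp14 to activate the gelatinase Mmp2, lies at chr11:118301069-118355740 (- strand). It was at 14.9, 14.6, 14.4 and 17.3 RPKM in naive, at 17.05, 16.6, 15.8 and 15.9 RPKM at 2 h and at 8.27, 9.92, 9.03 and 9.11 RPKM at 24 h. All 24 h libraries lay below all others, and naive and 2 h overlapped. At 24 h the mean was 59.4% of naive (log2 fold change -0.69 ± 0.07, SE, limma adjusted p = 7.17e-06) and 55.6% of 2 h (log2 fold change -0.78 ± 0.07, SE, limma adjusted p = 1.78e-06). At 2 h the difference from naive was 0.09 on the log2 scale (95% interval -0.05 to 0.24, limma adjusted p = 0.295). Timp3, the inhibitor that binds to the matrix, lies at chr10:86300372-86349506 (+ strand) and was at 0.0249 to 0.197 RPKM in naive, 0.0766 to 0.171 RPKM at 2 h and 0.0304 to 0.115 RPKM at 24 h, or 2 to 16 reads per library, with overlapping groups. It shares 1733 exon bases with Syn3 on the opposite strand.

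The ratio of Mmp19 to Timp2 within a library does not depend on the scaling of that library. In RPKM it was 6.72, 8.20, 7.70 and 5.54 in naive, 7.83, 9.76, 13 and 10.8 at 2 h and 6.82, 7.89, 5.06 and 6.22 at 24 h. The means were 7.04 ± 1.17 in naive, 10.3 ± 2.15 at 2 h and 6.50 ± 1.18 at 24 h (SD, n = 4 each), and the lowest 2 h value lay below the highest value of both other groups. The ratio of Mmp8 to Timp2 was 0.813 ± 0.118 in naive, 0.856 ± 0.177 at 2 h and 1.09 ± 0.143 at 24 h (SD, n = 4 each), with all 24 h libraries above all naive libraries. These ratios were formed after the values were seen and were not tested.

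Osteopontin is a secreted phosphoprotein that binds integrins and CD44. Its gene Spp1, at chr5:104435118-104441050 (+ strand), was at 42.8, 39.3, 42.9 and 41.0 RPKM in naive, at 82.3, 108, 129.8 and 82.7 RPKM at 2 h and at 84.5, 124, 60.5 and 68.6 RPKM at 24 h. Each of the 8 reperfusion libraries exceeded the highest naive library, and the 2 times overlapped. Spp1 rose 2.43-fold at 2 h (log2 fold change 1.23 ± 0.20, SE, limma adjusted p = 0.000793) and was 2.03-fold higher than naive at 24 h (log2 fold change 0.95 ± 0.20, SE, limma adjusted p = 0.00224). The difference between 24 h and 2 h was -0.28 on the log2 scale (95% interval -0.72 to 0.16, limma adjusted p = 0.259), and without 24 h replicate 2 it was -0.48 and passed (adjusted p = 0.0268). The coefficient of variation was 4.14% in naive, 22.7% at 2 h and 33.3% at 24 h. The gene shares 309 exon bases with the predicted gene Gm42793 on the same strand, which had no row of its own in the table.

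Fibronectin, an adhesive glycoprotein of the matrix and of plasma, is encoded by Fn1 at chr1:71585520-71653200 (- strand). Fn1 was at 22.3, 22.9, 23.5 and 23.4 RPKM in naive, at 17.6, 15.9, 10.3 and 16.6 RPKM at 2 h and at 24.4, 28.8, 24.8 and 19.5 RPKM at 24 h. All 2 h libraries lay below all naive and all 24 h libraries, and replicate 3 was the lowest of them. At 2 h Fn1 fell to 65.5% of naive (log2 fold change -0.60 ± 0.15, SE, limma adjusted p = 0.00782), and from 2 h to 24 h it rose 1.62-fold (log2 fold change 0.67 ± 0.15, SE, limma adjusted p = 0.00239). At 24 h it differed from naive by 0.07 on the log2 scale (95% interval -0.26 to 0.39, limma adjusted p = 0.745). Fn1 thus fell at the time at which Spp1 and Mmp19 rose. Fn1 shares 292 exon bases with the antisense gene Apol7d, whose means were 16.9, 11.3 and 17.5 RPKM in the 3 groups and which was the gene most like Fn1 in pattern. Without strand information the reads of both from the shared bases cannot be told apart.

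Thrombospondin 1 is a matrix protein that platelets release and that can activate latent TGF-beta. Thbs1, at chr2:118111876-118127133 (+ strand), was at 0, 0.0969, 0.0616 and 0.126 RPKM in naive, at 0.105, 0.0743, 0.0358 and 0.0424 RPKM at 2 h and at 0.0256, 0.0142, 0.0807 and 0.0168 RPKM at 24 h. No library held more than 7 reads of it, and the 0 reads of naive replicate 1 allow up to 0.0526 RPKM (3 reads, counting error only). The groups overlapped, and differences in Thbs1 were not tested at this depth.

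**Figure D2:**
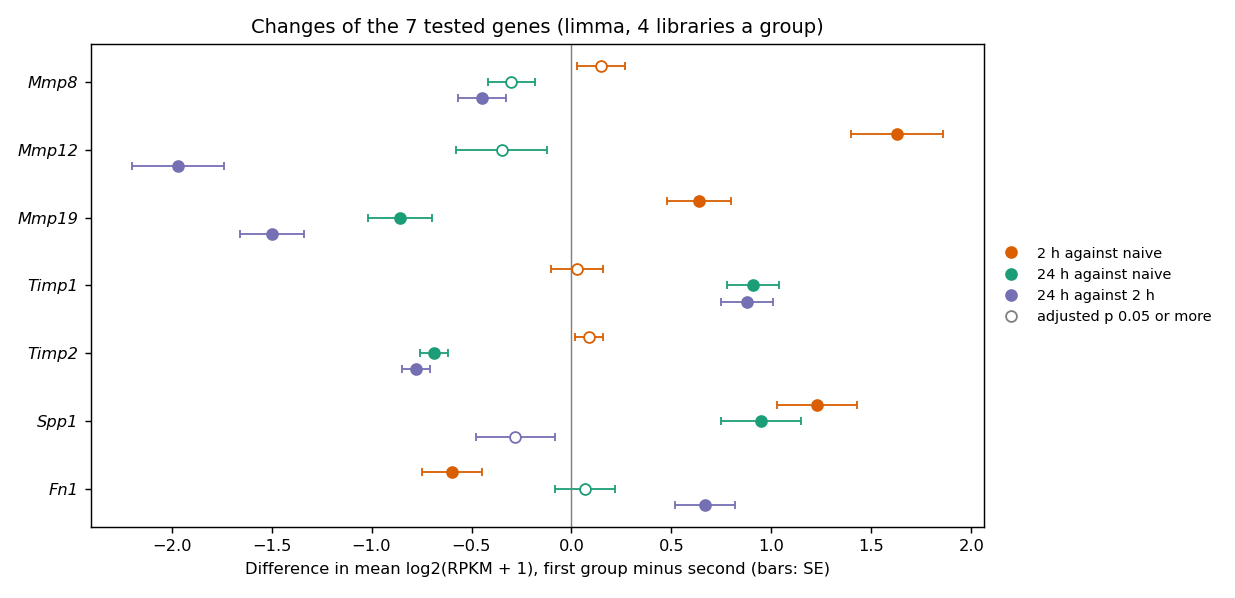
Difference in mean log2(RPKM + 1) (x axis) for the 7 tested genes (rows) in each of the 3 comparisons, with the SE as bars. Filled points have an adjusted p under 0.05, and Mmp12 has the widest differences, 1.63 at 2 h against naive and -1.97 at 24 h against 2 h. Mmp12 and Timp1 were tested only through the group in which they were high.

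Levels of different genes can be compared only per length, and the gene lengths behind the authors' RPKM differ from the annotation for some of these genes. The length implied by the RPKM steps was 69459 bases for Fn1, 5.94 times the 11685 bases of its annotated exons, and 7441 bases for Spp1, 4.52 times its 1648 bases, whereas for Mmp8 and Mmp19 the ratio was 1.01 and 0.965. Reads recovered from those steps were therefore divided by the annotated exon length and the library total, on the per-million scale of RPKM, to give reads per kilobase of exon. On this scale Spp1 was the most abundant of the 10 genes in every group, at 187 ± 7.75 in naive, 455 ± 103 at 2 h and 381 ± 127 at 24 h (SD, n = 4 each). Its RPKM lay below that of Mmp19 in naive and at 2 h. In naive Fn1 followed at 137 ± 3.10, Mmp19 at 103 ± 10.2, Timp2 at 17.4 ± 1.56, Mmp8 at 12.5 ± 1.30, Mmp12 at 1.25 ± 0.172 and Timp1 at 0.748 ± 0.208 (SD, n = 4 each), and no neighbours among these 7 overlapped. Mmp14, Timp3 and Thbs1 came last and overlapped each other. At 2 h Mmp19 (162 ± 28.8) stood above Fn1 (89.7 ± 19.5) and Mmp12 (8.19 ± 3.35) overlapped Mmp8 (14.1 ± 2.49), all with n = 4 and SD. At 24 h Fn1 (145 ± 22.7) stood above Mmp19 (57.2 ± 13.2), Timp2 (10.3 ± 0.769) overlapped Mmp8 (9.96 ± 0.967), and Timp1 (3.12 ± 0.365) stood above Mmp12 (0.662 ± 0.776). The exon lengths are those of GENCODE M21, which may not be the exons over which the authors counted.

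**Figure D3:**
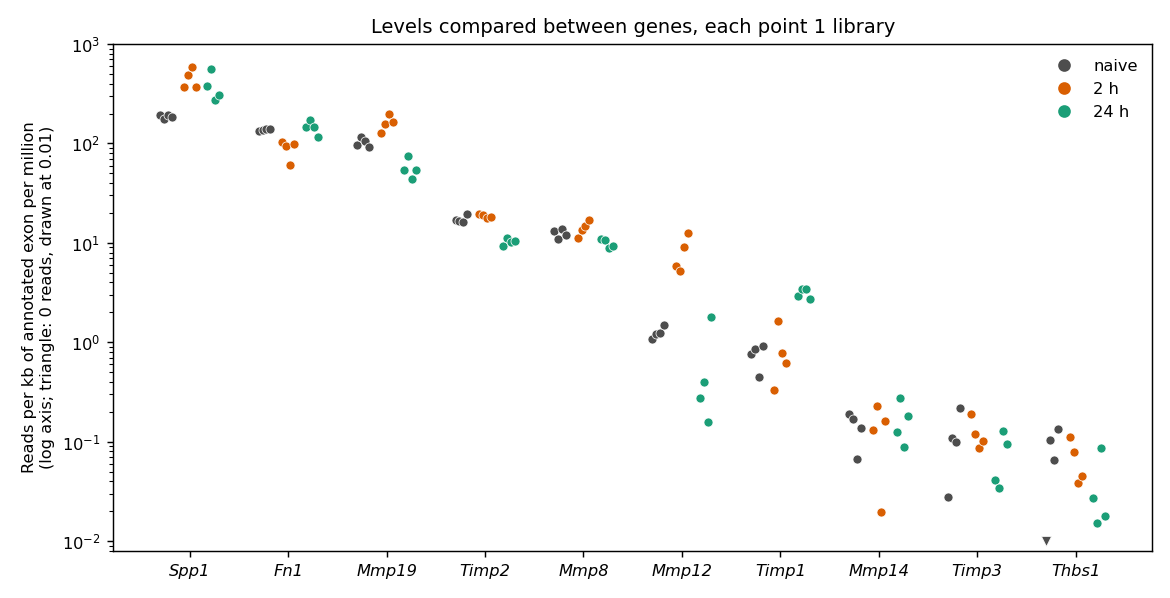
Reads per kilobase of annotated exon, scaled to the library total (y axis, log scale), for the 10 genes in order of their naive mean, with a point for each library. Spp1 is highest in all groups, Mmp12 and Timp1 exchange places between 2 h and 24 h, and the triangle marks the naive library with 0 reads of Thbs1.

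Some libraries held the extremes of their group for several genes at once. At 24 h replicate 2 was the highest library for 6 of the 10 genes, Mmp14, Mmp19, Timp1, Timp2, Spp1 and Fn1, and replicate 3 the lowest for 5, Mmp8, Mmp12, Mmp14, Mmp19 and Spp1. At 2 h replicate 3 was the highest for Mmp19 and Spp1 and the lowest for 5 genes, among them Fn1. Replicate 4 was the highest for Mmp12 in each of the 3 groups, although the replicate numbers did not pair the libraries across all genes.

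The genes most like each tested gene were taken as those with the highest Pearson r of log2(RPKM + 1) over the 12 libraries, a description that mostly follows the group means. For Mmp12 they were Ccdc146, Rraga and Arg2 (r = 0.967, 0.962 and 0.96), with Arg2, an arginase, at means of 2.15, 11.1 and 1.13 RPKM in naive, at 2 h and at 24 h. For Spp1 they were Slc2a1, the glucose transporter, Cspg4 and Atp6v0c (r = 0.983, 0.969 and 0.96), with Slc2a1 at 3.77, 12.0 and 8.61 RPKM. Mmp19 was closest to its overlapping neighbour Tmem198b (r = 0.996), then to Nfkb2, an NF-kappaB subunit, and Il1rap, a subunit of the interleukin-1 receptor (r = 0.961 and 0.956). Mmp8 was closest to Plau, the urokinase gene (r = 0.91), Timp1 to Ndufs3 (r = 0.977), Timp2 to Itm2c (r = 0.976) and Fn1 to its antisense neighbour Apol7d (r = 0.978).

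Enzymes and inhibitors around the metalloproteinases were read from lists. Among 19 other Mmp genes only Mmp24 was tested, a metalloproteinase of the cell membrane. It was at 1.72 RPKM in naive, 1.94 RPKM at 2 h and 2.00 RPKM at 24 h and passed neither test against naive (limma adjusted p = 0.263 and 0.143). The gelatinase genes Mmp2 and Mmp9 reached at most 0.227 and 0.219 RPKM, and Timp4 at most 0.693 RPKM. Furin, the protease that activates Mmp14, went from 28.0 ± 2.46 RPKM in naive to 46.4 ± 7.33 RPKM at 2 h (SD, n = 4 each, limma adjusted p = 0.000502) and was at 27.0 ± 2.16 RPKM at 24 h. Like Mmp19 it rose at 2 h and fell from 2 h to 24 h. Bsg, which encodes a surface protein that induces metalloproteinases in neighbouring cells, was 1.24-fold higher at 24 h than in naive (limma adjusted p = 0.00306).

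In the plasminogen system, whose proteases activate several metalloproteinases, 2 of 7 tested genes rose, 2 fell and 3 did not pass at 2 h, and 0 rose, 4 fell and 3 did not pass at 24 h against naive. The median log2 fold changes were 0.03 and -0.18, beside -0.04 and 0.00 over all tested genes. For this and the next 2 lists, 14.7% of all tested genes rose and 22.0% fell at 2 h. At 24 h against naive 25.3% rose and 20.6% fell. Plaur, the urokinase receptor, rose 1.79-fold at 2 h (limma adjusted p = 0.00191). At 24 h Plaur was at 128 ± 9.70 RPKM against 247 ± 15.3 RPKM in naive (SD, n = 4 each, limma adjusted p = 0.000347), so that it shared with Mmp19 a rise at 2 h and a level below naive at 24 h. Of 7 tested ADAM and ADAMTS genes 2 rose, 1 fell and 4 did not pass at 2 h (median 0.07), and 2 rose, 2 fell and 3 did not pass at 24 h (median -0.12). Adam10, a sheddase of the cell surface, was 1.33-fold higher at 24 h (limma adjusted p = 7.55e-05). Of 14 cathepsin and cystatin genes, lysosomal proteases and their inhibitors, 4 rose, 3 fell and 7 did not pass at 2 h (median 0.09), and 8 rose, 5 fell and 1 did not pass at 24 h (median 0.19). The falls at both times include Ctsw, with means of 1.22, 0.549 and 0.283 RPKM in naive, at 2 h and at 24 h. Ctsw passed the filter on low values mainly through naive libraries, so its falls carry no weight as tests. At 24 h Ctsf and Ctsh fell by 1.20 and 0.53 on the log2 scale and the inhibitor Cstb rose 1.47-fold (limma adjusted p = 4.5e-05, 1.97e-05 and 0.000182).

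Of 11 tested receptors for the adhesive proteins 1 rose, 6 fell and 4 did not pass at 24 h against naive (median -0.29, beside 0.00 over all tested genes, of which 25.3% rose and 20.6% fell). At 2 h 3 rose, 4 fell and 4 did not pass (median -0.01, beside -0.04, with 14.7% of all tested genes higher and 22.0% lower). Cd44, a receptor for osteopontin and hyaluronan, was at 97.5 ± 5.75 RPKM in naive, 117 ± 3.09 RPKM at 2 h and 60.2 ± 5.10 RPKM at 24 h (SD, n = 4 each), a rise at 2 h (limma adjusted p = 0.00618) and a fall at 24 h against naive (limma adjusted p = 3.73e-06). Spp1, the ligand, was higher than naive at both times. Lrp1, which takes up metalloproteinases and their complexes with inhibitors, and Cd36, a scavenger receptor that binds thrombospondin 1, fell by 0.50 and 0.85 on the log2 scale at 24 h (limma adjusted p = 1.23e-05 and 0.000143). At 2 h the integrin subunit gene Itgav fell by 0.24 and Cd47, a thrombospondin receptor, rose 1.17-fold (limma adjusted p = 0.00651 and 0.0129). In the TGF-beta list 1 of 9 tested genes rose and 8 did not pass at 2 h (median 0.04), and 1 rose, 7 fell and 1 did not pass at 24 h (median -0.35). Tgfb1 went from 104 RPKM in naive to 81.6 RPKM at 24 h (limma adjusted p = 0.000182) and Tgfb2 had means of 1.12 RPKM in naive and 0.138 RPKM at 24 h, a gene tested because of its higher levels outside the 24 h group. Tgfb2 is counted among the 7 falls, where it carries no weight as a test. Of 8 other tested matrix proteins 3 rose, 2 fell and 3 did not pass at each time (medians 0.01 and 0.24). Emilin2, an elastin-associated glycoprotein, rose 2.16-fold at 2 h (limma adjusted p = 6.23e-05), and at 24 h Gpnmb, a glycoprotein of macrophages, was 1.70-fold higher (limma adjusted p = 0.000439). Thbs3 had means of 1.21 RPKM in naive and 0.41 RPKM at 24 h, and like Tgfb2 it passed the filter on low values through libraries outside the 24 h group, so no test of its difference is given. It is counted among the 2 falls at each time, and carries no weight there. With log2(RPKM + 1) the falls of genes near 1 RPKM are understated.

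**Figure D4:**
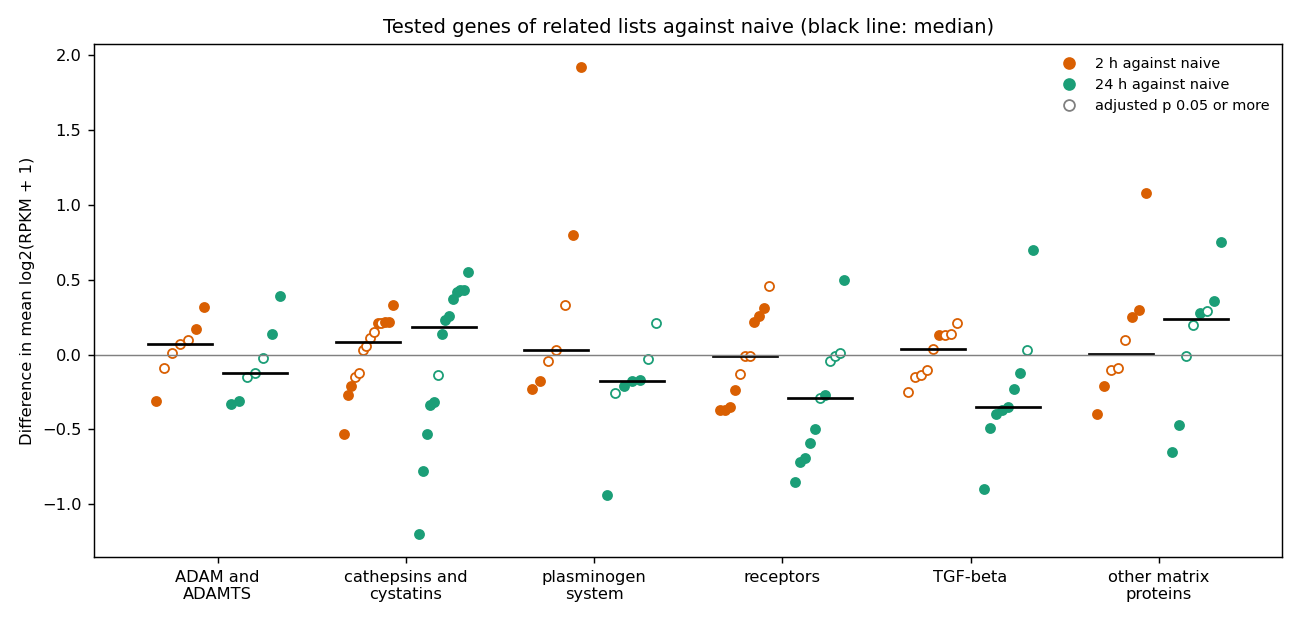
Difference in mean log2(RPKM + 1) against naive (y axis) for the tested genes of 6 related lists at 2 h and at 24 h, with a point for each gene and a black line at the median of each list. Filled points have an adjusted p under 0.05. The medians of the receptor and TGF-beta lists at 24 h lie at -0.29 and -0.35. Ctsw, Tgfb2 and Thbs3 passed the filter on low values through libraries outside the 24 h group, so their filled points at 24 h carry no weight as tests.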

How the data were processed

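The authors deposited RPKM values for Ensembl genes, 1 column per library, in a single table. They used TopHat2, HTSeq and bcl2fastq with build mm10, per the submitters' processing notes; versions, annotation, gene lengths and strand settings were not given in the sources used here. Libraries were grouped by their descriptions. Symbols and positions came from GENCODE M21 (GRCm38, the assembly of mm10), and 42462 of 43430 genes (97.8%) had a symbol.

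The steps of the RPKM values gave the library totals, and for 11417 of 11419 tested genes every value was a whole number of reads to within 0.02. Precision follows those totals, at which 3 reads of a 1 kb gene are 0.25 to 0.491 RPKM. The model was limma 3.58.1 (R 4.3.3) on log2(RPKM + 1) with all 12 libraries, a trend in the variance and two-sided tests. Fold changes on this scale understate changes of low genes, and folds are ratios of mean RPKM. The fit was tested on simulated data.

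Alternatives were quantile normalisation, median-ratio scaling, equal totals (TPM), pseudocounts of 0.1 and 0.5, filtering at 5 RPKM or not at all, library weights, no trend, a replicate block, only the 2 groups compared, limma voom on recovered reads and each library left out. The genes and lists were chosen with earlier results of these data known. The text describes the 10 genes, up to 3 genes of each list with the smallest p against naive, and any tested Mmp or Timp gene. It also describes the 3 genes most like each tested gene, and Ctsw because of the filter. Not all of these are printed or reported here. The protein motifs that were also to be searched were not analysed here.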

Additional observations from a re-analysis of the deposited data

Results flagged for a closer look

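The groups of 4 libraries were examined for a library far from the others, in 30 groups of the 10 genes, and 2 stood out, where chance alone flags about 1 in 20. Mmp12 at 24 h was at 0.970 RPKM in replicate 4 against 0.0852 to 0.211 RPKM in the others, with 0.858 of the group's range in that gap. Without that library the log2 fold change at 24 h against naive was -0.54. Timp2 in naive was at 17.3 RPKM in replicate 4 against 14.4 to 14.9 RPKM in the others, with 0.839 of the range in the gap.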

How the results depend on the processing

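Over 24 other settings none of the 14 calls among the 21 comparisons of tested genes was lost where the gene was tested, and the filter at 5 RPKM left Mmp12 and Timp1 untested. The 14 calls include those of Mmp12 and Timp1, which the main filter admitted through the group where they were high. Over all tested genes 36.7% were called at 2 h against naive, 45.9% at 24 h against naive and 52.5% at 24 h against 2 h. With the filter at 5 RPKM, which tests fewer genes, 1 of the 10 genes rose at 24 h against naive and 1 at 24 h against 2 h. Over all genes 1544 then fell at 2 h, while 2307 rose and 1616 fell at 24 h against 2 h. Differences that were not called turned sign in 5 cases. Timp1 at 2 h was at -0.01 with voom and at -0.09 to 0.12 when each library was left out (-0.02 without naive replicate 3, -0.09 without 2 h replicate 2). Fn1 at 24 h against naive was at -0.01 with quantile normalisation and at -0.02 to 0.16 when each library was left out (-0.02 without 24 h replicate 2), and the cause was not tested. The replicate block gave 1636 genes higher and 2384 lower at 2 h against naive and changed no call among the 10 genes. Same-numbered libraries deviated from their group means with correlations of -0.0426 to 0.0548, so the numbers were not taken to pair them. Depth limits Timp1, Mmp14, Timp3 and Thbs1, which had at most 33 reads in any library.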
